A study of Mus musculus with 17 samples.

Results

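Kidneys of mice carrying a SARA transgene were compared with kidneys of wild-type mice, both given vehicle only. The comparison rests on 5 single-cell libraries of the 17 samples in the series, 2 labelled as SARA transgene (SARA-Tg vehicle 1 and 2) and 3 labelled as wild type (WT vehicle 1, 2 and 3). Members were chosen by these labels and by the cell filter. Cells with at least 200 detected genes and at most 30% of unique molecular identifiers (UMIs, counts of captured mRNA molecules) from mitochondrial genes were kept. This gave 42686 cells, 13376 SARA-Tg and 29310 WT, of the 68159 kept cells in the 9 kidney libraries. All mice were 8 weeks old when treatment began and carried PDGFRb-Cre and the Z/EG reporter, which turns on GFP wherever Cre has been active. Vehicle was injected into the peritoneum, with 3 injections a week for 3 weeks in the protocol, and GFP+ cells were sorted from Liberase-digested kidney. The other 4 kidney libraries, set beside these below, came from mice given aristolochic acid at 5 mg/kg. The transgene is a human SARA cDNA behind a CAG promoter and a lox-stop-lox cassette, targeted to Rosa26, so it is expressed in cells with present or past Cre activity. The study reports that this Cre is active in leukocytes as well as pericytes. The labels number the replicates but do not say whether each came from a separate animal, so p-values measure the spread between these libraries.

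SARA (Smad anchor for receptor activation, encoded by Zfyve9) is a FYVE-domain protein of early endosomes. It was first described as binding Smad2 and Smad3 and presenting them to the activated TGF-β receptor complex, while later work found that TGF-β signalling can proceed without it. In kidney, loss of SARA has been tied to the change of epithelial cells towards a matrix-producing state. Zfyve16 (endofin) is the closest relative of SARA and sits on the same endosomes.

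Libraries held 54791016 to 137093834 UMIs, and kept cells had a median of 4590 to 9470 UMIs. Although the sort is labelled as PDGFRb+GFP+, Pdgfrb itself was near absent, at 0.192 to 3.02 UMIs per 1000000 (CPM), and 5 to 21 cells per library met the pericyte and smooth muscle gate. The kept cells were mainly tubule, leukocyte and endothelial cells by their markers. Of the WT libraries, 2 stood apart. In WT vehicle 3, 43.0% of cells were T cells and 16.8% proximal tubule, against 84.6% and 76.2% proximal tubule in WT vehicle 1 and 2. WT vehicle 2 alone had a high level of Xist, the X inactivation RNA (1349 CPM against 0.169 to 0.513 in the others), and almost no Y-linked Ddx3y (0.0285 against 53.4 to 58.4 CPM). This is the pattern of a female library, with the others male, though the labels give no sex. Kap, a kidney gene higher in males, was at 511 CPM in WT vehicle 2 and 8283 to 42205 CPM in the others. Sex was thus not balanced between the groups, and its part was not tested. Any pair of the 5 libraries shared 12 to 55 cell barcodes.

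The targeted gene followed the labels in the vehicle libraries. Over all kept cells Zfyve9 (chr4:108637466-108780798, minus strand, GRCm38) was at 25.9, 31.9 and 10.9 CPM in WT vehicle 1, 2 and 3 and at 95.8 and 92.2 CPM in SARA-Tg vehicle 1 and 2. Both transgenic libraries lay above every WT library. The log2 fold change was 1.97 ± 0.48 (SE, n = 2 and 3), with an adjusted p of 1 by edgeR's quasi-likelihood test with Benjamini-Hochberg adjustment over 16607 genes. It passed when WT vehicle 3 was left out (log2 1.64, adjusted p = 0.0459). Zfyve16 was at 39.4, 54.6 and 17.3 CPM in WT and 24.1 and 22.9 CPM in SARA-Tg, so its groups overlapped. The gene list holds no human ZFYVE9 and no GFP entry, and how many Zfyve9 UMIs came from the transgene was not tested.

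Cells were assigned to types by fixed marker genes, and UMIs were summed per library within each type, since cells of a library are not replicates. In all, 14 types had at least 10 cells in 2 or more libraries of each genotype and could be fitted. Zfyve9 was higher in both SARA-Tg libraries than in every WT library in all 14, where 5.4% (T cells) to 23.5% (plasma cells) of all tested genes were higher in this sense. It passed the edgeR test in 5 types, and it was the only gene that passed as higher in each of them. The share of tested genes passing as higher was 0.0281% in NK cells, 0.013% in dendritic cells, 0.0223% in neutrophils, 0.0212% in distal convoluted tubule and 0.0188% in B cells.

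The estimated Zfyve9 difference varied from type to type, also among leukocytes, and differences between types were not tested. In NK cells, cytotoxic innate lymphocytes, Zfyve9 had no UMI in any WT library (180 cells) and was at 183 and 134 CPM in SARA-Tg vehicle 1 and 2. Against a floor of 3 UMIs over the WT group, 5.99 CPM, this is at least 26.5-fold higher (adjusted p = 5.29e-05). In neutrophils the WT libraries held 0, 23.3 and 6.58 CPM and the SARA-Tg libraries 1073 and 404 CPM, the highest Zfyve9 CPM of the 14 types (log2 5.41 ± 0.60, adjusted p = 0.0141). Neutrophils held few UMIs per cell, 2102 and 2561 in SARA-Tg vehicle 1 and 2. Counted per cell, they had 2.25 and 1.03 Zfyve9 UMIs there, against 2.80 and 1.76 in principal cells. Dendritic cells, which present antigen to T cells, rose from 5.52, 3.08 and 3.92 CPM to 104 and 83.5 CPM (log2 4.51 ± 0.33, adjusted p = 0.00274). In B cells 3 UMIs over the WT group stood against 562 in SARA-Tg, a pooled ratio of 33.1 (95% exact interval of counting error 11.3 to 161, adjusted p = 0.0333). Of these leukocytes, NK, dendritic and B cells had a Zfyve9 level below 10 CPM in every WT library, and neutrophils in all but WT vehicle 2. The distal convoluted tubule had a higher WT level, and rose from 62.2, 59.7 and 39.4 CPM to 194 and 282 CPM (log2 2.15 ± 0.27, adjusted p = 0.0214).

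The NK cell call passed with each library left out in turn, and the other 4 calls were each lost without at least 1. Where a SARA-Tg library was left out, the single one that remained was assumed to vary like the WT libraries. The distal convoluted tubule call was lost without WT vehicle 1 (adjusted p = 0.212), WT vehicle 2 (0.0656), SARA-Tg vehicle 1 (0.138) and SARA-Tg vehicle 2 (0.851). The dendritic cell call was lost without SARA-Tg vehicle 1 (0.0534), the neutrophil call without WT vehicle 1 (0.175) and the B cell call without WT vehicle 2 (0.0823). With 1 library left out, the log2 difference in Zfyve9 ran from 1.75 to 2.28 in distal convoluted tubule, 4.28 to 4.67 in dendritic cells, 4.81 to 6.81 in neutrophils (the highest without WT vehicle 2) and 4.17 to 10.3 in B cells. The B cell value of 10.3 came without WT vehicle 1, which held all 3 WT UMIs, and is no measure of size. Every one of these calls was lost with all 9 kidney libraries in the fit, the NK cell call included (edgeR adjusted p = 0.0936). That fit holds the aristolochic acid libraries whose Zfyve9 level went against their labels, as given below. With these left out, an alternative chosen after seeing the data, each of these types again had 1 gene called as higher. The neutrophil and B cell calls were also lost with clusters in place of the gate.

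In the other 9 types Zfyve9 did not pass by edgeR, though each had at least 1 alternative that passed. By DESeq2 it passed in T cells (adjusted p = 1.44e-06), proximal tubule (0.00273), macrophages (0.00964) and plasma cells (0.0188). T cells held 3.62, 0.799 and 0.173 CPM in WT and 36.1 and 29.0 CPM in SARA-Tg (6 against 192 UMIs, log2 5.92 ± 0.69, adjusted p = 0.124, and 0.0296 without WT vehicle 1 and 0.00691 without WT vehicle 3). The T cell log2 difference ran from 4.28 to 6.95 with 1 library left out. Plasma cells had 2 UMIs in WT and 53 in SARA-Tg. In the proximal tubule, the most abundant type, the levels were 24.9, 30.3 and 17.4 CPM in WT and 79.0 and 59.8 CPM in SARA-Tg (log2 1.61 ± 0.30, adjusted p = 0.694). Thick ascending limb, principal cells, intercalated cells, endothelium and macrophages had log2 differences of 1.5 to 3.09. Monocytes had the smallest, 1.18 ± 0.36, and the highest WT mean of any type, 136 CPM. When each cell was thinned to 1000 UMIs, the expected share of SARA-Tg cells with a Zfyve9 UMI ran from 2.86% and 1.85% in plasma cells to 60.3% and 32.9% in neutrophils. In WT it was 0 to 0.231% in T, B, NK and plasma cells. These are shares of cells with a UMI, not of cells expressing the gene. Like CPM, they are relative to the total UMIs of a cell. Counted per cell, T cells had the fewest Zfyve9 UMIs of the fitted types in SARA-Tg vehicle 1 and 2, 0.147 and 0.0953. No cell type known to lack the transgene was at hand to give the share from free RNA, so its part was not tested.

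**Figure D1:**
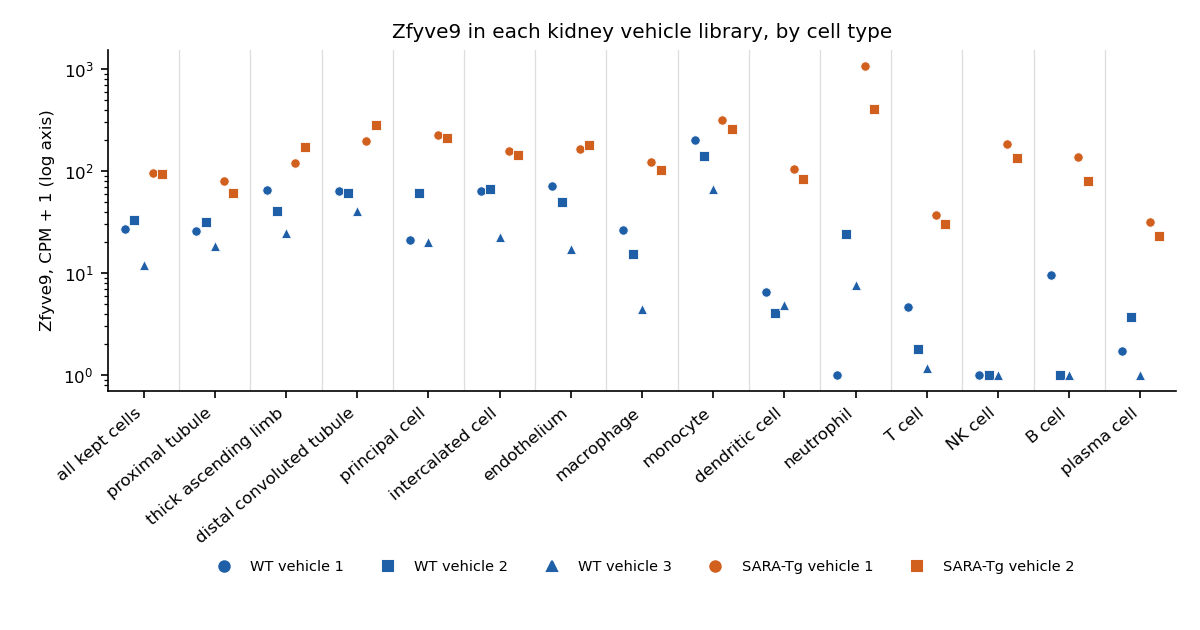
Zfyve9 level (CPM of the summed UMIs plus 1, log axis) in each library and cell type, with the cells of each type summed per library. Every SARA-Tg vehicle point lies above every WT vehicle point of its type, and the WT points of lymphocytes lie at or near 0.

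The libraries were also compared in the share of each cell type among the sorted cells, which the sort can set. B cells made up 11.0% and 12.6% of kept cells in SARA-Tg vehicle 1 and 2 and 1.01%, 0.266% and 1.94% in WT vehicle 1, 2 and 3. Endothelial cells made up 9.24% and 4.43% against 0.979%, 0.706% and 1.65%. NK cells averaged 2.25% ± 0.31 (SD, n = 2) against 0.658% ± 0.31 (n = 3), and principal cells of the collecting duct 0.589% ± 0.52 against 0.112% ± 0.070. In these 4 types the groups did not overlap, and each reached the smallest p that a two-sided exact permutation test of 2 against 3 libraries allows, 0.1 (0.475 after Benjamini-Hochberg adjustment over 19 classes). For principal cells the gap was narrow, with 15 of 6788 cells in SARA-Tg vehicle 1 (0.221%) and 14 of 7373 in WT vehicle 3 (0.190%). The intervals of counting error of these shares overlapped, 0.124% to 0.364% against 0.104% to 0.318%. SARA-Tg vehicle 2 stood higher, with 63 of 6588 cells (0.956%), and WT vehicle 1 and 2 were at 0.0544% and 0.0917%. Cells that met no gate made up 11.4% in SARA-Tg against 5.66% in WT, also without overlap (exact p = 0.2). An edgeR test of cell numbers passed for B cells (log2 3.46, adjusted p = 0.046) and for fibroblasts (log2 3.71, adjusted p = 0.046), of which 47 of 48 SARA-Tg cells came from SARA-Tg vehicle 2.

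The other named types overlapped. Proximal tubule cells averaged 35.7% ± 2.8 in SARA-Tg and 59.2% ± 36.9 in WT (exact p = 0.4). T cells averaged 11.6% ± 0.93 against 16.3% ± 23.1 (exact p = 1), and without WT vehicle 3 the difference turned from -4.68 to 8.68 percentage points. Macrophages were at 8.31% against 6.60% and neutrophils at 3.73% ± 4.2 against 1.59% ± 1.2. Share intervals, and the floor used for Zfyve9, cover counting error only.

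**Figure D2:**
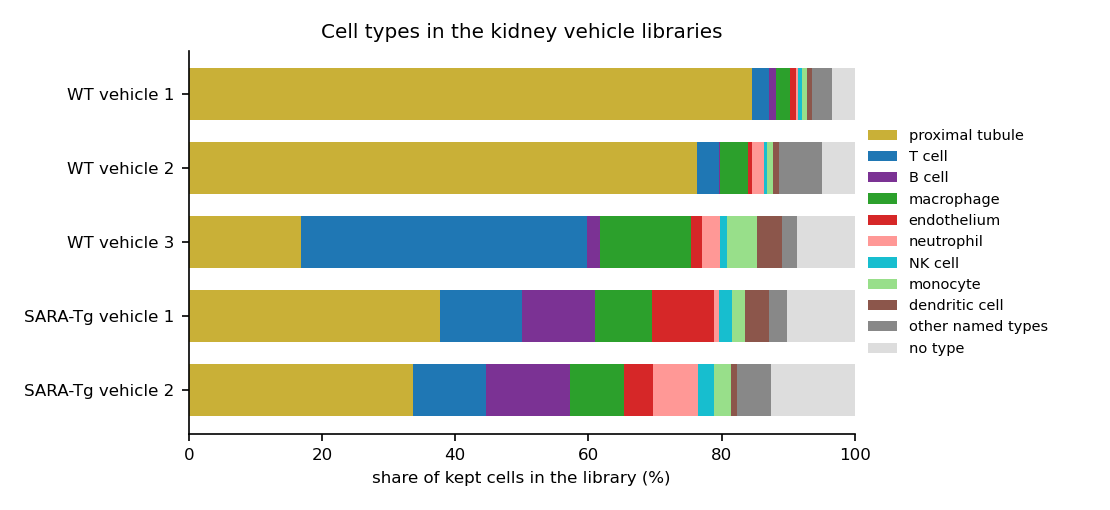
Stacked bars of the share of kept cells in each cell type (percent of the library, linear axis from 0), with 1 bar for each of the 5 vehicle libraries, the smaller named types joined in dark grey and cells that met no gate in light grey. The B cell, NK cell and endothelium segments are wider in both SARA-Tg vehicle bars than in all 3 WT vehicle bars, while the T cell segment of WT vehicle 3 is far wider than any other.

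Summed over all kept cells, no gene passed in either direction (0% of 16607 tested), and 445 had an unadjusted p below 0.05. By DESeq2 there were 79 higher and 9 lower, and edgeR without WT vehicle 3 called 303 higher and 4 lower. In such sums, more cells of a type and more RNA per cell cannot be told apart. The genes of smallest p included markers of types whose shares were higher. Sox18, an endothelial transcription factor, was at 1.17, 1.11 and 2.20 CPM in WT and 34.4 and 20.3 CPM in SARA-Tg (log2 4.14 ± 0.48). Ms4a1, which encodes the B cell antigen CD20, was at 4.60, 2.96 and 6.93 against 62.7 and 56.6 CPM, and Ncr1, the NK cell receptor NKp46, at 2.25, 2.76 and 2.85 against 15 and 17 CPM. Ltbp1, which holds latent TGF-β in the matrix, was at 0.785, 1.18 and 1.13 against 11.9 and 7.12 CPM. In the other direction, Gadd45g, a stress-induced growth arrest gene, was at 159, 82.7 and 151 CPM in WT and 27.4 and 33.1 CPM in SARA-Tg, and Nfil3, a bZIP transcription factor, at 27.1, 31.9 and 24.3 against 8.44 and 11.0 CPM. All 6 had an adjusted p of 1.

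In the proximal tubule, which reabsorbs most of the filtered solutes, no gene of 14169 passed (0%), with 579 at an unadjusted p under 0.05. DESeq2 called 74 higher and 17 lower, and edgeR called none with any 1 library left out. Nfil3 was at 28.2, 33.8 and 25.4 CPM in WT and 9.41 and 10.0 CPM in SARA-Tg (log2 -1.49 ± 0.22, adjusted p = 0.629). Vgll4, a cofactor that restrains TEAD transcription factors, was at 26.8, 37.2 and 44.9 against 10.8 and 12.7 CPM, and Serpinb8, a protease inhibitor, at 14.7, 22 and 27.8 against 5.72 and 4.5 CPM. Cish, an inhibitor of cytokine signalling through STAT5, was at 78.0, 23.1 and 17.9 against 0.754 and 1.60 CPM (log2 -5.07 ± 0.96, adjusted p = 0.708). Groups did not overlap for these genes, which can be set beside the 12.7% of tested genes that were lower and the 8.02% that were higher without overlap.

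Of 21 heat shock and unfolded protein genes, none of which passed, 7 were lower in SARA-Tg proximal tubule without overlap and none higher, beside 12.7% and 8.02% of all genes. Their median log2 fold change was -0.57 against -0.03 for all genes tested. This was not limited to proximal tubule: the summed level of the list was lower in both SARA-Tg libraries than in every WT library also in thick ascending limb, distal convoluted tubule, intercalated cells, endothelium, macrophages and dendritic cells. The sums overlapped in monocytes, neutrophils, T cells, NK cells, B cells and plasma cells, and over all kept cells. In principal cells they overlapped through the few cells of WT vehicle 1. Of the list, the chaperone Hspa8 was at 1805, 1884 and 2219 CPM in WT and 1233 and 1095 CPM in SARA-Tg proximal tubule, and the inducible chaperone Hspa1a at 18.0, 20.9 and 23.7 against 4.24 and 1.27 CPM (log2 -2.80 ± 0.56, adjusted p = 0.755). The Hspa1a log2 difference ran from -3.99 to -2.16 with 1 library left out. Of 22 tubule injury genes none was free of overlap (median -0.68). The injury gene Spp1, osteopontin, ranged from 75.5 and 1790 to 6796 CPM within WT alone and was at 119 and 350 CPM in SARA-Tg. The 17 transporter genes of the early segments (median -0.63), the 15 genes of the late segment (median -0.34) and the 23 genes of gluconeogenesis and fatty acid oxidation (median 0.16) had 0, 1 and 3 members higher and 0, 0 and 1 lower without overlap, to be set beside the same 8.02% and 12.7%.

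The genes of smallest p that were higher in proximal tubule cells included genes of other cell types. Cd79a and Cd79b, the signalling chains of the B cell receptor, were at 1.10, 1.06 and 1.44 and at 0.835, 0.750 and 0.878 CPM in WT, and at 7.82 and 8.39 and at 7.09 and 6.65 CPM in SARA-Tg. Ly6c1, an endothelial and leukocyte surface protein, was at 1.46, 2.79 and 2.26 against 14.5 and 17.2 CPM (each adjusted p = 0.495). Over whole marker lists, 8 B cell markers summed to 5.90 to 7.59 CPM in WT and 38.9 to 41.9 CPM in SARA-Tg proximal tubule cells, with 7 of 8 higher without overlap, beside 8.02% of all genes. The 10 endothelial markers summed to 8.35 to 10.1 against 39.3 to 58.7 CPM, all 10 higher without overlap. None of these markers was at 0. The B cell and endothelial shares of the same libraries were higher too. For NK cells, whose share was higher as well, 0 of 6 tested markers were higher without overlap. For macrophages, whose share overlapped through WT vehicle 3 alone (13.6%), 6 of 10 markers were higher without overlap (median 1.5). The part of other cells in these values was not tested.

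The loop and distal tubule were represented by few cells. The thick ascending limb, which takes up salt and senses it at the macula densa, had 63, 96 and 26 cells in WT and 42 and 66 in SARA-Tg. One gene of 4874 passed as higher (0.0205%) and none as lower (0%). Pappa2, a protease that frees insulin-like growth factors from their binding proteins, was at 6.44, 0 and 0 CPM in WT and rose to 143 and 431 CPM in SARA-Tg (adjusted p = 0.0147). This is 2 UMIs against 284, a pooled ratio of 223 with an exact 95% interval of counting error of 61.2 to 1850. The Pappa2 log2 difference ran from 6.34 to 10.1 with 1 library left out. The SARA-Tg UMIs came from 4 of 42 and 4 of 66 cells. The call was lost without WT vehicle 1 (adjusted p = 0.233), without SARA-Tg vehicle 2 (0.126), with clusters in place of the gate (0.387) and with all 9 kidney libraries in the fit (0.0741).

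Pappa2 is known as a macula densa gene, and 2 further macula densa genes were looked at after its value was seen. Ptgs2, the inducible cyclooxygenase, was at 0, 10.9 and 0 CPM in WT and 59.7 and 64.3 CPM in SARA-Tg (log2 3.50 ± 0.70, adjusted p = 0.362). With 1 library left out its log2 difference ran from 3.05 to 7.49, the highest without WT vehicle 2, which held all its WT UMIs, and it passed without WT vehicle 2 and without WT vehicle 3. Nos1, neuronal nitric oxide synthase, was at 9.66, 27.2 and 0 against 55.7 and 120 CPM (log2 2.62 ± 0.61, adjusted p = 0.524). The Nos1 log2 difference ran from 2.02 to 4.14 with 1 library left out. Neither passed with all libraries, and neither overlapped, beside 9.11% of tested genes higher without overlap. At least 2 of the 3 genes were detected in 1, 1 and 0 cells of WT and in 2 and 4 cells of SARA-Tg, so the values rest on single cells within the gate.

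Other thick limb genes did not pass. S100a6, a calcium-binding protein, was at 12.9, 38.1 and 63.4 CPM in WT and 235 and 311 CPM in SARA-Tg (log2 2.99 ± 0.43, adjusted p = 0.117), Klf2, a flow-responsive transcription factor, at 6.44, 4.08 and 19.8 against 55.7 and 153 CPM, and Id3, an inhibitor of differentiation induced by BMP and TGF-β, at 12.9, 35.4 and 11.9 against 59.7 and 219 CPM. Tmem52b, a distal tubule membrane protein, was at 718, 751 and 721 against 306 and 148 CPM (log2 -1.59 ± 0.34, adjusted p = 0.427), and Gadd45g at 306, 223 and 479 against 79.6 and 113 CPM. Of 13 mitochondrially encoded genes, 9 were higher without overlap (median log2 0.74 against 0.01 for all genes), beside 9.11% of all genes. Of 24 nuclear genes of the respiratory chain, 13 were lower (median -0.36), beside 17% of tested genes lower without overlap. Markers of other types differed in these cells as well: 8 B cell markers summed to 1.36 to 15.8 CPM in WT and 118 to 159 in SARA-Tg, and 11 pericyte and smooth muscle markers to 2.72 to 3.96 against 7.96 and 417, with 1 of the 11 at 0 throughout. Distal convoluted tubule markers differed in the other direction, with 7 of them summing to 998 to 1095 CPM in WT and 473 to 561 CPM in SARA-Tg. Tmem52b, given above, is 1 of the 7 and made up most of the WT sums, so this difference largely restates that gene. Of 4 that could be tested, 1 was higher without overlap and 1, Tmem52b, lower. The part of these markers was not tested. Leaving out WT vehicle 3 gave 38 genes higher and 7 lower, leaving out SARA-Tg vehicle 1 gave 12 higher, leaving out WT vehicle 2 gave 4 and 1, and leaving out WT vehicle 1 or SARA-Tg vehicle 2 gave none.

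In the distal convoluted tubule, the site of thiazide-sensitive salt uptake, Zfyve9 was the 1 gene of 4713 that passed. The gene of smallest p in the other direction was Cyp2j11, an epoxygenase of the cytochrome P450 family (chr4:96294508-96348662, minus strand, GRCm38). It was at 83.3, 74.3 and 72.2 CPM in WT and at 0 and 3.62 CPM in SARA-Tg (log2 -4.62 ± 0.71, adjusted p = 0.0742). The log2 value ran from -4.37 to -8.68 with 1 library left out, the latter without SARA-Tg vehicle 2, which leaves no UMI in SARA-Tg, and it passed without WT vehicle 3. Cells with a Cyp2j11 UMI numbered 52 of 138, 69 of 175 and 9 of 18 in WT and 0 of 11 and 1 of 46 in SARA-Tg. In proximal tubule the WT levels of Cyp2j11 were 90.2, 125 and 72.0 CPM and the SARA-Tg levels 73.0 and 24.1 CPM, which overlapped. Reads of the closely related Cyp2j genes could be split differently by the authors' counting, so this value is uncertain.

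Among other distal convoluted tubule genes, Pmepa1, an inhibitor that competes with SARA for Smads and is counted with the receptors, Smads and inhibitors below, was at 188, 194 and 144 CPM in WT and 298 and 557 CPM in SARA-Tg (log2 1.34 ± 0.29, adjusted p = 0.452). The calcium buffer Pvalb was at 542, 696 and 118 against 2579 and 1012 CPM. Umod, the uromodulin gene of the thick limb, was at 2848, 2193 and 2415 against 6963 and 4643 CPM, with thick limb markers summing to 4883 to 8839 against 8876 and 15670 CPM. Pvalb is a marker of the distal convoluted tubule gate and Umod of the thick limb gate, so their levels are partly set by the gate. WT vehicle 3 held 18 of these cells and SARA-Tg vehicle 1 held 11. Idi1 and Cyp51, enzymes of cholesterol synthesis, were at 122, 146 and 65.6 against 29.8 and 25.3 CPM and at 54.8, 60.4 and 59.1 against 14.9 and 7.23 CPM, and Eif3l, a translation initiation factor, at 218, 204 and 217 against 44.7 and 72.3 CPM. None of these passed. Without WT vehicle 3 the fit called 3 genes higher and 4 lower, without WT vehicle 2 it called 1 lower, and without any other library none.

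**Figure D3:**
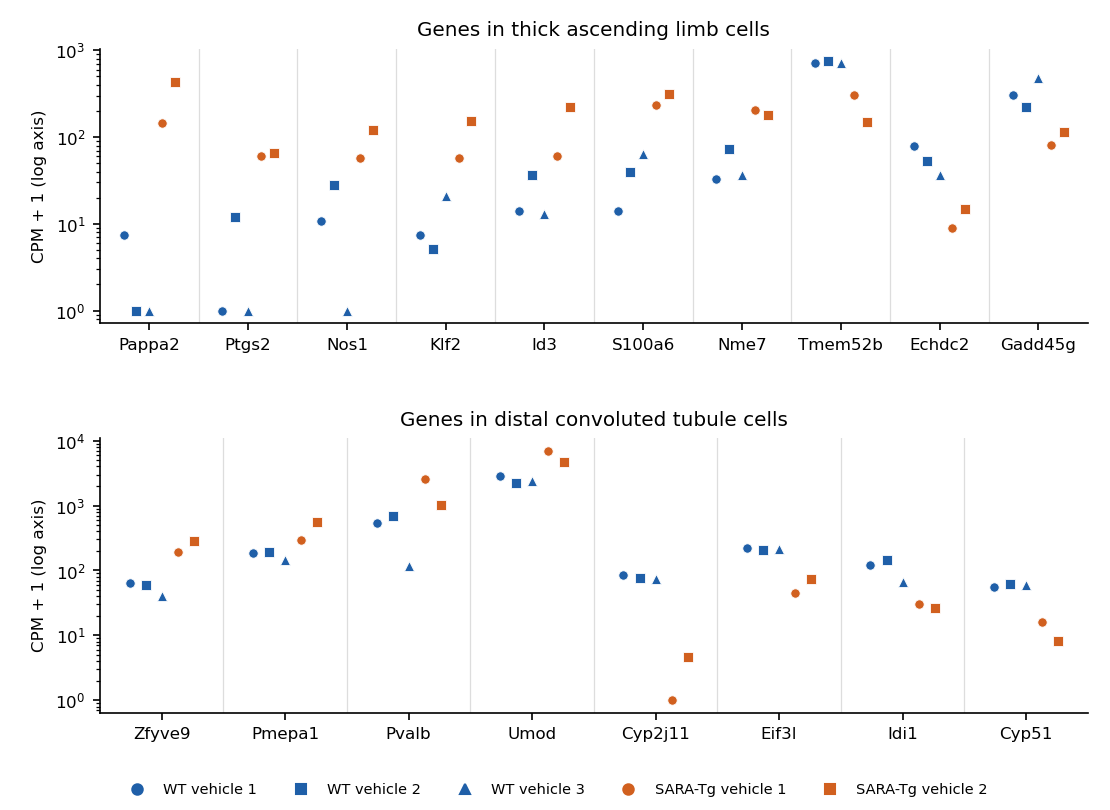
Levels (CPM of summed UMIs plus 1, log axis) of named genes in thick ascending limb and distal convoluted tubule cells of the 5 vehicle libraries. Pappa2, Ptgs2 and Nos1 lie higher in both SARA-Tg vehicle libraries, and Cyp2j11 lies at 0 and 3.62 CPM there against 72.2 to 83.3 CPM in WT vehicle.

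Collecting duct cells gave no call in either type (0%). Principal cells numbered fewer than 10 in WT vehicle 1 and were fitted without it. The fit rested on 10 and 14 of them in WT vehicle 2 and 3 and 15 and 63 in SARA-Tg vehicle 1 and 2. These held 100359 to 531310 UMIs per library, so single genes rest on few UMIs. In principal cells 173 of 3348 genes were at an unadjusted p below 0.05, and DESeq2 called 1. Sgk1, the aldosterone-induced kinase, was at 359 and 485 CPM in WT vehicle 2 and 3 and 144 and 104 CPM in SARA-Tg (log2 -1.75 ± 0.36, adjusted p = 0.279), and S100a6 at 279 and 562 against 101 and 105 CPM. The class I MHC gene H2-Q7 was at 179 and 99.9 against 21.3 and 5.65 CPM, and 4 of 7 class I genes were lower without overlap (median -1.74), beside 19.8% of all genes. Leaving out a further library gave 221 calls (without WT vehicle 2), 35 (without WT vehicle 3), 32 (without SARA-Tg vehicle 1) and 0 (without SARA-Tg vehicle 2). These fits set 1 library against 2 and take the spread from the 2. In intercalated cells, which secrete acid or base, 256 of 5942 genes were at an unadjusted p below 0.05 and none was called by DESeq2. Lpl, lipoprotein lipase, was at 60.2, 60.5 and 43.4 against 11.2 and 7.25 CPM (log2 -2.47 ± 0.41, adjusted p = 0.843), the calcium-binding S100a1 at 2271, 1943 and 1951 against 1072 and 1077 CPM, and Smim6, a small membrane protein, at 74.1, 101 and 126 against 268 and 232 CPM. None of these overlapped, beside 12.9% of tested genes lower and 8.58% higher without overlap in intercalated cells. Smim6 stood the same way in principal cells, at 19.9 and 42.8 against 149 and 318 CPM.

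Endothelium gave no call among 7703 genes (0%), with 312 at an unadjusted p under 0.05 and 1 higher and 6 lower by DESeq2. Sox18 was at 233, 271 and 114 CPM in WT and 623 and 621 CPM in SARA-Tg (log2 1.65 ± 0.33, adjusted p = 0.851). Id1 and Id3, which BMP and TGF-β signalling induce in endothelial cells, were at 1089, 711 and 244 and at 1678, 1422 and 294 CPM in WT, with WT vehicle 3 lowest, and at 2224 and 1281 and at 2866 and 2213 CPM in SARA-Tg (adjusted p = 1 each). Lower without overlap were Nrgn, a calmodulin-binding protein (141, 199 and 154 against 21.4 and 39.1 CPM, log2 -2.46 ± 0.36, adjusted p = 0.513), the growth factor Igf1 (147, 214 and 136 against 56.6 and 49.5 CPM) and Gsn, the actin-severing protein gelsolin (156, 365 and 219 against 44.9 and 71.1 CPM). Of the 13 mitochondrially encoded genes 9 were higher without overlap (median 0.51), beside 9.27% of all genes higher and 9.42% lower. Of 23 endothelial genes 1 was higher and 1 lower (median -0.06).

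In T cells no gene of 9631 passed by edgeR (0%), while 758 were at an unadjusted p below 0.05, and 22 were higher and 21 lower by DESeq2. Both SARA-Tg libraries were below every WT library for 22.5% of genes and above for 5.4%. Genes of naive and circulating T cells were among the smallest p. Ccr7, the receptor that guides T cells into lymph nodes, was at 27.7, 45.5 and 18.7 CPM in WT and 165 and 104 CPM in SARA-Tg (log2 2.38 ± 0.35, adjusted p = 0.136). S1pr1, needed for exit from lymphoid tissue, was at 28.9, 51.9 and 25.4 against 134 and 103 CPM. Klf2, which drives S1pr1, was at 274, 357 and 104 against 840 and 841 CPM (log2 2.00 ± 0.38, adjusted p = 0.211). Lef1 and Bach2, transcription factors of the naive state, were at 95.2, 112 and 55.1 against 256 and 185 CPM and at 12.1, 13.6 and 9.61 against 38.2 and 29.4 CPM. WT vehicle 3 was lowest for all 5. Of 20 tested genes of naive and memory T cells 6 were higher and 3 lower without overlap (median 0.16).

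Cell cycle genes stood lower in SARA-Tg T cells. The proliferation list summed to 2508, 3006 and 3871 CPM in WT and 1995 and 1486 CPM in SARA-Tg, and 13 of its 18 genes were lower without overlap and none higher (median log2 -1.23, against -0.03 for all genes tested). Mki67, the Ki-67 antigen, was at 145, 114 and 96.7 against 34.1 and 19.8 CPM (log2 -1.93 ± 0.30, adjusted p = 0.136), and Top2a, topoisomerase II, at 166, 99.9 and 107 against 46.7 and 20.2 CPM. Plk1, a mitotic kinase, was at 12.1, 9.59 and 10.4 against 0.587 and 0.421 CPM, and the replication-dependent histone gene Hist1h2ap at 62.7, 29.6 and 73.2 against 5.58 and 1.26 CPM. Of 17 cytotoxic genes 6 were lower (median -0.43), and of 24 nuclear respiratory chain genes 22 were lower by small amounts (median -0.23). Among all genes tested in T cells, 22.5% were lower in this sense, which 6 of 17 is not far from. Tgfbr2, the type II TGF-β receptor, was at 74.7, 72.7 and 74.0 against 95.2 and 96.3 CPM (log2 0.52 ± 0.21, adjusted p = 0.597).

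WT vehicle 3 supplied 3174 T cells, against 287 and 362 from WT vehicle 1 and 2, and without it edgeR called 49 genes higher and 28 lower in T cells. Without WT vehicle 1 it called 1 higher, without WT vehicle 2 it called 1 higher and 1 lower, and without either SARA-Tg library it called none. The T cell markers themselves summed to 5964 to 8025 CPM in WT and 5560 and 5749 in SARA-Tg, with 4 of 9 lower without overlap, beside 22.5% of all genes. Dendritic cell markers, a list that includes Ccr7, summed to 35.8 to 47.9 against 106 and 169 CPM. In SARA-Tg nearly all of that sum was Ccr7 itself, and the other dendritic cell markers together were no higher there than in WT.

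**Figure D4:**
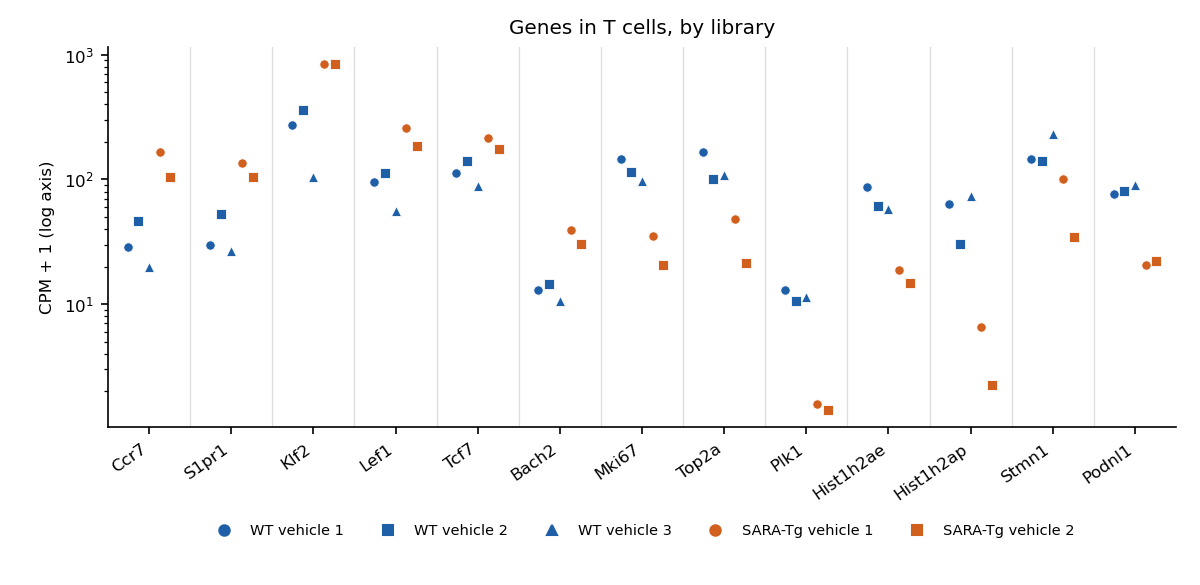
Levels (CPM of summed UMIs plus 1, log axis) of naive T cell genes and cell cycle genes in the T cells of the 5 vehicle libraries. Ccr7, S1pr1, Klf2, Lef1 and Bach2 lie higher and Mki67, Top2a, Plk1 and the histone genes lower in both SARA-Tg vehicle libraries than in all 3 WT vehicle libraries.

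In NK cells 1 gene of 3565 passed as higher (Zfyve9) and 1 as lower (0.0281%), Gm10260, whose values are given below. Rpl36al, a ribosomal protein, was at 167, 194 and 226 CPM in WT and 392 and 474 CPM in SARA-Tg (log2 1.15 ± 0.26, adjusted p = 0.213), and the chemokine gene Ccl3 at 321, 429 and 101 against 505 and 795 CPM. Tsc22d3, a glucocorticoid-induced gene, was at 181, 141 and 394 against 55.3 and 94.4 CPM, and Apobec3, a cytidine deaminase that restricts retroviruses, at 216, 188 and 245 against 117 and 52.9 CPM. Rpl36al and Apobec3 were not particular to NK cells. Rpl36al was higher without overlap in 12 of 14 types. Apobec3 was lower without overlap also in T cells (243, 235 and 346 against 97.2 and 34.5 CPM), B cells, dendritic cells, macrophages, monocytes, endothelium and principal cells. It overlapped in proximal tubule, intercalated cells, neutrophils and plasma cells. In B cells no gene of 5323 other than Zfyve9 passed. Borcs8, a subunit of a lysosome positioning complex, was at 91.9, 106 and 137 against 35.6 and 32.9 CPM (log2 -1.71 ± 0.28, adjusted p = 0.111), Id2, an inhibitor of E proteins, at 149, 29.0 and 105 against 28.6 and 18.5 CPM, and Odc1, the first enzyme of polyamine synthesis, at 184, 106 and 100 against 52.9 and 32.5 CPM. B cell counts depended on single libraries, with 3 higher and 17 lower without WT vehicle 3, 1 and 6 without WT vehicle 1, and 4 and 2 without SARA-Tg vehicle 1. NK cell counts reached 9 higher and 13 lower without SARA-Tg vehicle 1 and 4 and 11 without SARA-Tg vehicle 2.

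Plasma cells, which secrete antibody, numbered 60, 18 and 85 in WT and 59 and 37 in SARA-Tg. No gene of 6538 passed (0%), with 347 at an unadjusted p under 0.05, and DESeq2 called 6 higher and 1 lower. Cell cycle genes were described in them as in T cells. The proliferation list summed to 267, 328 and 513 CPM in WT and 700 and 887 CPM in SARA-Tg, and 10 of 13 tested genes were higher without overlap (median log2 1.54), beside 23.5% of all genes. Rrm2, a ribonucleotide reductase subunit, was at 2.19, 5.37 and 3.62 against 23 and 30.1 CPM (log2 2.56 ± 0.44, adjusted p = 0.285). Few cells carried the Rrm2 UMIs. It had a UMI in 6 of 59 and 2 of 37 SARA-Tg plasma cells, and in 3 of 60, 2 of 18 and 6 of 85 in WT, so the shares of cells overlapped. Thinned to 1000 UMIs a cell, the expected shares did not, at 1.37% and 1.69% in SARA-Tg against 0.230%, 0.619% and 0.295% in WT. The share of plasma cells with an Mki67 UMI overlapped as well, at 35%, 27.8% and 23.5% in WT and 32.2% and 27.0% in SARA-Tg. Klf2 was at 86.1, 113 and 63.4 against 289 and 381 CPM (log2 1.69 ± 0.25, adjusted p = 0.234), and Epcam, an adhesion protein of epithelium and some leukocytes, at 67.9, 88.6 and 52.5 against 29.3 and 31.7 CPM. Single immunoglobulin segments differed too: Ighv1-15 had no UMI in WT and was at 28.5 and 66.6 CPM in SARA-Tg, and Ighv5-9-1 was at 10.2, 18.8 and 9.50 CPM in WT and had none in SARA-Tg. Without WT vehicle 3 the fit called 6 genes higher and 30 lower, and without SARA-Tg vehicle 1 it called 3 higher.

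Macrophages, the main resident phagocytes, gave no call among 10097 genes (0%), with 333 at an unadjusted p under 0.05 and 4 higher and 6 lower by DESeq2. Garnl3, a putative Rap GTPase-activating protein, was at 4.09, 4.82 and 3.48 CPM in WT and 21.8 and 23.4 CPM in SARA-Tg (log2 2.39 ± 0.29, adjusted p = 0.434). Cacna1a, a calcium channel subunit, was at 59.0, 35.1 and 59.4 against 2.34 and 4.54 CPM (log2 -3.99 ± 0.46, adjusted p = 0.434), and the interferon-induced GTPase Gbp2b at 63.0, 27.2 and 54.1 against 6.62 and 3.4 CPM. Apoe, the lipid carrier, was at 10884, 11491 and 26936 CPM in WT, with WT vehicle 3 highest, and 9682 and 10331 CPM in SARA-Tg. Mki67 was at 22.1, 51.3 and 65.5 against 11.7 and 17 CPM. Of 22 resident and lipid genes 1 was higher and 2 lower without overlap (median -0.59), beside 12.9% and 6.89% of all genes.

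Monocytes gave no call among 7203 genes (0%), with 239 at an unadjusted p under 0.05 and 1 lower by DESeq2. Lyz1, a lysozyme gene with a close relative in Lyz2, was at 57.8, 113 and 104 CPM in WT and 15.7 and 14.2 CPM in SARA-Tg (log2 -2.62 ± 0.39, adjusted p = 0.558), beside 10.1% of tested genes lower and 7.83% higher without overlap. In dendritic cells, where Zfyve9 was the 1 gene called, Apol7c, a gene of cross-presenting cells, was at 84.1, 46.2 and 29.5 against 11.1 and 3.98 CPM, and Hopx, an atypical homeodomain protein, at 22.1, 18.5 and 27.2 against 65.3 and 131 CPM (adjusted p = 1 each), beside 9.51% of tested genes lower and 8.59% higher without overlap. In neutrophils Cd14, the co-receptor for bacterial lipopolysaccharide, was at 306, 820 and 1247 against 84.0 and 201 CPM (log2 -2.44 ± 0.58, adjusted p = 0.685), and Fosb, an immediate early gene, at 125, 75.8 and 54.9 against 606 and 157 CPM. The Cd14 log2 difference ran from -3.59 to -1.95 with 1 library left out. Of 19 immediate early genes 7 were higher without overlap in neutrophils (median 0.50), beside 13% of all genes higher and 6.61% lower. In intercalated cells, endothelium, macrophages, monocytes, dendritic cells and neutrophils, leaving out any 1 library moved the number of called genes by at most 2.

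The TGF-β pathway, to which SARA was first tied, and the early endosome were followed through 4 lists in every type. Of the 22 genes of SARA and the early endosome, 8 to 20 could be tested per type, and none but Zfyve9 passed anywhere. Their medians lay between -0.18 and 0.19. Of 30 TGF-β receptors, Smads and inhibitors none passed. In all kept cells 7 of 30 were higher and none lower without overlap (median 0.14), beside 9.39% and 5.06% of all genes. In the thick ascending limb 4 of 15 were higher and 2 lower (median 0.48), beside 9.11% and 17% of all genes there. Of the ligands and latent binding proteins none passed, with 2 of 16 higher in all kept cells, 1 of them Ltbp1. Of the TGF-β and BMP target genes none passed. Endothelium had 3 of 12 higher and none lower without overlap (median 0.19), beside 9.27% and 9.42% of all genes. The distal convoluted tubule had none of 6 higher and 2 lower (median -0.52), beside 10.8% and 12.3%, and T cells 1 of 6 higher and 3 lower (median -0.16), beside 5.4% and 22.5%. With so few members tested, nothing is read from these counts. In the endothelium Tgfbr2 was at 212, 218 and 190 CPM in WT and 228 and 283 CPM in SARA-Tg (log2 0.32 ± 0.25, adjusted p = 1). Among 33 matrix genes 6 were higher without overlap over all kept cells and none lower (median 0.70), and none passed. The 8 fibroblast markers summed to 1.46, 16.5 and 7.65 CPM in WT and 5.15 and 216 CPM in SARA-Tg over all kept cells, so SARA-Tg vehicle 2 stood apart, and their part was not tested.

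Some genes stood apart in many cell types at once. Of 4406 genes tested in at least 10 types, 35 (0.794%) were higher without overlap in at least 9 types and 20 (0.454%) lower. Types of a library share its cells' handling and sequencing, so they are not replicates of each other. Zfyve9 was higher in 14 of 14. Ribosomal protein genes, a list chosen after their values were seen, made up 19 of the 35 and none of the 20, out of 80. Among the 20 lower genes, Hspa8 and Hsp90ab1 are chaperones and Atp5a1 and Atp5b subunits of ATP synthase.

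Of the 20 lower genes, 3 lay on chromosome 8, out of 219 tested there (1.37%), and 3 on chromosome 10, out of 232 (1.29%), which were Aes, Atp5b and Mbd3. Aes and Atp5a1 were each lower in 11 of 14 types. Ocel1 (chr8:71371298-71379361), an occludin domain gene, was lower in 12 of 14 types and at 55.2, 31.5 and 60.9 CPM in WT and 20.5 and 23.9 CPM in SARA-Tg over all kept cells. Asna1 (chr8:85017931-85025281), an ATPase that inserts tail-anchored proteins into membranes, was lower in 10 of 12, and Borcs8 (chr8:70139499-70147319) in 9 of 14. Tpm3-rs7, a tropomyosin 3 related sequence on chromosome 14, was lower in 10 of 11 with the largest median difference of the 20 (log2 -3.05). Over all kept cells it was at 3.38, 31.7 and 92.3 CPM in WT and 4.96 and 5.36 CPM in SARA-Tg, where WT vehicle 1 was as low as SARA-Tg. None of these passed.

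Gdpd3, a lysophospholipase D gene, was higher in 13 of 13 types, yet WT libraries differed among themselves. Over all kept cells it was at 1.17, 4.38 and 103 CPM in WT vehicle 1, 2 and 3 and 119 and 143 CPM in SARA-Tg, so WT vehicle 3 was close to SARA-Tg. Gm10260 also split the WT libraries, in the other direction. It was at 225, 3.83 and 312 CPM in WT and 2.40 and 2.77 CPM in SARA-Tg, with WT vehicle 2 as low as the transgenic libraries. In NK cells, where it was called (767, 0 and 413 against 0 and 5.66 CPM, adjusted p = 0.0162), the groups overlapped through WT vehicle 2. DESeq2 gave it an adjusted p of 1. In B cells it was at 1023, 9.67 and 569 against 5.51 and 5.35 CPM (adjusted p = 0.0846).

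Gm10260 and Gm11361 are near-identical copies of Rps18, a gene for a protein of the small ribosomal subunit, so their reads are hard to tell apart. Over the 459 bases of the coding sequence Gm10260 differed from Rps18 at 4 positions (99.1% identity) and Gm11361 at 3 (99.3%). Bases 337 to 396 of the coding sequence are shown from the GRCm38 annotation, with capitals at the positions where a copy and Rps18 differ, because the window holds 2 of the 4 differences of Gm10260. The transcripts outside the coding sequence were not compared.
Rps18 (chr17:33951999-33956001, minus strand): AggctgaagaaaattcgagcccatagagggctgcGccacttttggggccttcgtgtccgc
Gm10260 (chr13:97760072-97760632, minus strand): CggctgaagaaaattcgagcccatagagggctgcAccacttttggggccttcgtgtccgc
Gm11361 (chr13:28257528-28258134, plus strand): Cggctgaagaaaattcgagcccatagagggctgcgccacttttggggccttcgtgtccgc
Gm11361 followed Gm10260 at a lower level, 48.7, 6.99 and 53.8 CPM in WT and 10.9 and 10.3 CPM in SARA-Tg. Rps18 itself was at 417, 1076 and 1988 CPM in WT and 1912 and 1942 CPM in SARA-Tg, and was higher in 11 of 14 types. How the counting divided reads between the copies was not tested.

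**Figure D5:**
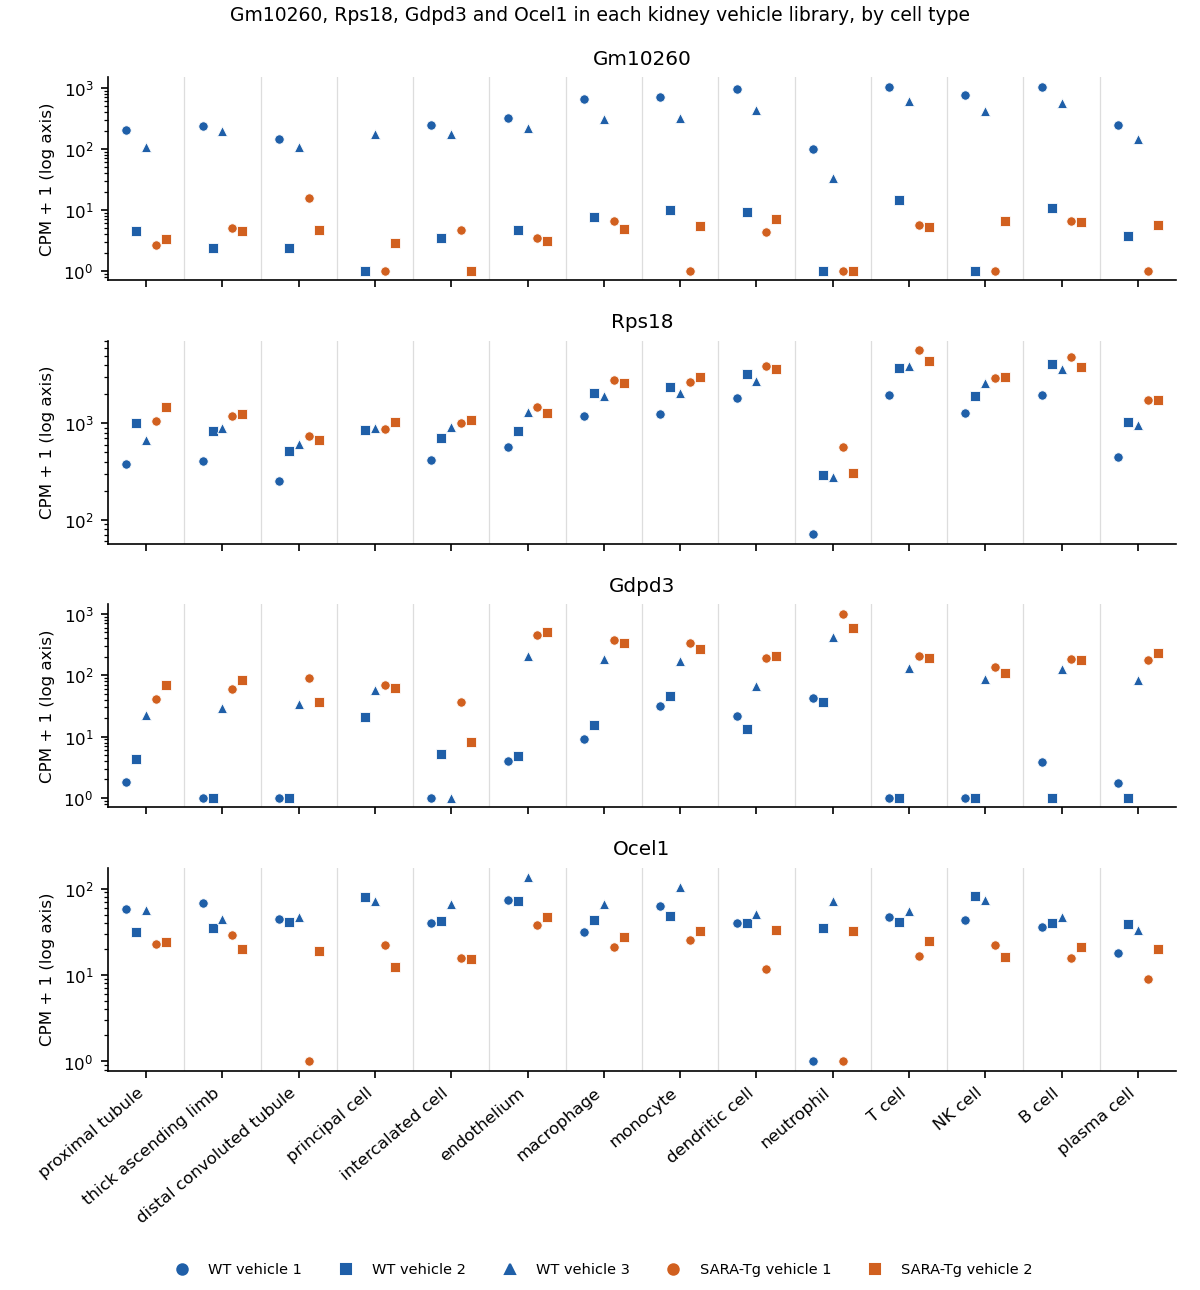
Levels (CPM of summed UMIs plus 1, log axis) of Gm10260, Rps18, Gdpd3 and Ocel1 in each cell type of the 5 vehicle libraries, with principal cells of WT vehicle 1 left out. Gm10260 is low in both SARA-Tg vehicle libraries and in WT vehicle 2, Gdpd3 is low in WT vehicle 1 and 2, and Ocel1 lies lower in SARA-Tg vehicle in 12 of 14 types.

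The aristolochic acid libraries, 1 labelled SARA-Tg and 3 labelled WT, share no library with this comparison, and their values are set beside it without a test. For Zfyve9 the libraries went against their labels. The library labelled SARA-Tg aristolochic acid 1 was at 20.7 CPM, and the library labelled WT aristolochic acid 1 at 166 CPM, against 13.1 and 13.3 CPM in WT aristolochic acid 2 and 3. Gm10260 followed the same split, at 305 CPM in the library labelled SARA-Tg and 5.17, 437 and 377 CPM in those labelled WT. As given above, Gm10260 was low in WT vehicle 2 as well. Gdpd3 followed it too, at 105 CPM in the library labelled SARA-Tg and 227, 75.0 and 109 CPM in those labelled WT. Ocel1, Borcs8 and Asna1, lower in many types of SARA-Tg vehicle, did not. They were at 40.9, 63.5 and 42.6 CPM in the library labelled SARA-Tg. In WT aristolochic acid 1 they were at 64.7, 82.1 and 42.8 CPM. In T cells Ccr7 was at 26.8 CPM in the library labelled SARA-Tg and at 21.5, 81.1 and 57.8 CPM in those labelled WT, and Mki67 at 133 and at 85.4, 22.9 and 61.4 CPM. Pappa2 in thick limb cells was at 3.24 CPM in the library labelled SARA-Tg and at 0, 0 and 50.3 CPM in those labelled WT. Cyp2j11 in distal convoluted tubule was at 72.5 and at 119, 40.2 and 62.0 CPM. None of these 4 libraries had the low Cyp2j11 or the high Pappa2 level of the SARA-Tg vehicle libraries. Cells were few, with 236 thick limb cells in the library labelled SARA-Tg and 36, 13 and 47 in those labelled WT. The library labelled SARA-Tg also had the female pattern, with Xist at 1336 CPM and Ddx3y at 0.0342 CPM. Those labelled WT had Xist at 0.295, 0.0380 and 0.149 CPM. The part of sex was not tested.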

How the data were processed

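Kidney libraries were made with the 10x Genomics 3′ v3 single-cell kit. The deposited counts are whole UMIs per gene and cell barcode for 31053 genes, which the authors made with Cell Ranger 3.0.2 and mm10 per the submitters' processing notes, without normalization (Seurat 2.3.4 is named there too). Cells were typed by fixed markers, with at least 2 markers detected, a scaled score of at least 0.25 and 1.5 times the next type. UMIs were summed per library and type with at least 10 cells. Genes passing filterByExpr were tested with edgeR 4.0.16 (TMM, quasi-likelihood, no covariate, two-sided) in R 4.3.3, with Benjamini-Hochberg adjustment over all genes of a fit and a threshold of 0.05. CPM are per 1000000 summed UMIs. No overlap means that both SARA-Tg libraries lay outside the WT range. Named genes were those past the threshold, or up to 5 of smallest p per direction, and list members with the highest level, and others are marked as chosen later. Members and lists were chosen with earlier results of these data known. Doublets were kept, and alternatives used scrublet (scanpy 1.11.5), DESeq2 1.42.0, clusters, other filters and left-out libraries. Code was tested on simulated data. Positions are from GRCm38 with GENCODE annotation. Some genes that met the rule for named genes are not reported here.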

Additional observations from a re-analysis of the deposited data

Results flagged for a closer look

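Zfyve9 was at 166 CPM over all kept cells in the library labelled WT aristolochic acid 1, a library outside the vehicle comparison, above the 10.9 to 31.9 CPM of the WT vehicle libraries. Proliferation genes stood in opposite directions in 2 cell types of the same libraries, with a median log2 fold change of 1.54 in plasma cells and -1.23 in T cells. This difference between the types was not tested.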

How the results depend on the processing

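Numbers of called genes depended on the settings. DESeq2 called 88 in all kept cells, 91 in proximal tubule, 43 in T cells, 10 in macrophages, 7 in endothelium, 7 in plasma cells, 5 in thick ascending limb, 3 in B cells, 2 in distal convoluted tubule, 2 in neutrophils, and 1 each in principal cells, monocytes and NK cells. Without a filter on low counts edgeR called 199 in thick ascending limb, 27 in distal convoluted tubule, 85 in principal cells, 81 in intercalated cells, 152 in endothelium, 2 in macrophages, 90 in monocytes, 123 in dendritic cells, 33 in neutrophils, 314 in T cells, 30 in NK cells, 76 in B cells and 236 in plasma cells. With the replicate number as a block it called 53 in thick ascending limb, 36 in distal convoluted tubule, 10 in intercalated cells, 300 in endothelium, 3 in monocytes, 2 in dendritic cells, 71 in neutrophils, 197 in T cells, 75 in NK cells, 66 in B cells and 115 in plasma cells. Only WT has a vehicle replicate 3, so the block fits WT vehicle 3 on its own, and it carries no weight in the genotype difference. These counts thus set SARA-Tg vehicle 1 and 2 against WT vehicle 1 and 2. The labels do not say that a number pairs libraries. Same-numbered libraries deviated together with r = 0.259 and 0.14 over all kept cells, but with r = -0.015 to -0.19 for the second pair in 7 types. Under a cell filter of 500 genes or more and 20% mitochondrial UMIs or less the thick ascending limb had 2, and without predicted doublets it had 16 and B cells 2. With all 9 kidney libraries in the fit the thick ascending limb, distal convoluted tubule, dendritic cells, neutrophils, NK cells and B cells had 0. Without the 2 aristolochic acid libraries that went against their labels, an alternative chosen after seeing the data, B cells had 2. In that fit NK cells had 2 as well, and thick ascending limb, distal convoluted tubule, dendritic cells and neutrophils had 1 each. With clusters in place of the gate, thick ascending limb, neutrophils and B cells had 0 and NK cells 1. No cluster was named distal convoluted tubule or dendritic cell, so the calls in these types could not be checked that way. The distal convoluted tubule also had no fit under the cell filter of 500 genes. The cause of these shifts was not tested, beyond the fewer or more genes and libraries in each fit. A fit with the Cell Ranger version as a covariate was not run, since the 5 libraries share 1 version.

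Leaving out each library in turn gave 0 to 307 called genes in all kept cells, 0 to 45 in thick ascending limb, 0 to 7 in distal convoluted tubule, 0 to 221 in principal cells, 0 to 2 in intercalated cells, 0 to 1 in endothelium, 0 to 1 in macrophages, 0 to 2 in monocytes, 1 to 3 in dendritic cells, 0 to 2 in neutrophils, 0 to 77 in T cells, 3 to 22 in NK cells, 1 to 20 in B cells and 0 to 36 in plasma cells. The log2 difference of Zfyve9 over all kept cells ran from 1.64 to 2.13. Differences in share, SARA-Tg minus WT in percentage points, changed sign for T cells (-11.5 to 8.68), dendritic cells (-0.825 to 1.74), erythroid cells (-0.0304 to 0.0705), fibroblasts (-0.0111 to 0.688), intercalated cells (-1.24 to 0.267), macrophages (-0.536 to 5.21), monocytes (-0.548 to 1.40), neutrophils (-0.841 to 5.12), pericytes and smooth muscle (-0.0386 to 0.207), plasma cells (-0.133 to 0.361) and podocytes (-0.0161 to 0.167). They kept their sign for B cells, NK cells, endothelium, principal cells, proximal tubule, distal convoluted tubule, thick ascending limb and cells that met no gate. An edgeR test on cell numbers passed for B cells (log2 3.46) and fibroblasts (log2 3.71).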
